A study of Mus musculus with 18 samples.

Results

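The 10 genes described here encode integrin chains, the subunits of the receptors by which leukocytes hold on to other cells and to the extracellular matrix. They are 6 α chains (Itga2, Itgam, Itgal, Itgax, Itga4 and Itgae) and 4 β chains (Itgb1, Itgb2, Itgb3 and Itgb7). They were taken by symbol from the annotation of the array, with earlier results of these data known, and make up 10 of its 19084 named genes and 11 of its 26423 probes. Itgb1 had 2 probes, of which the brighter stands for the gene, and each other gene had 1.

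RNA from C57Bl/6 mice was measured on 18 single-dye microarrays in 6 groups of 3 arrays, to find genes that set basophils apart from mast cells and genes that change when Cebpa is lost. Cebpa encodes C/EBPα, a transcription factor that drives myeloid development. Fresh basophils were purified from the bone marrow of mice injected 3 days earlier with interleukin-3 bound to its antibody. Mast cells were grown from bone marrow over 4 weeks in 20 ng/ml interleukin-3. The remaining groups were purified basophils cultured for 5 days in the same dose of interleukin-3, from Cebpa +/+ RosaYFP/creER mice (wild type below) or Cebpa f/f RosaYFP/creER mice, each kept with or without 100 nM 4-hydroxytamoxifen, here called the drug. Wild type and f/f cells thus both carried the drug-activated recombinase and the fluorescent reporter, and differed in whether Cebpa could be cut out. Not given in the sources used here were the ages of the mice, which cells express the recombinase and whether cells were sorted on the reporter. Fresh basophils were not cultured and the mast cells were, so cell type and culture cannot be told apart in that comparison.

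Median probe intensity was 24 to 42 per array, and 47.3% to 54.8% of probes read above 30, the limit below which a probe is called at background here. Where the Cebpa probe lies relative to the part cut out was not checked here. It read 2539 to 2973 in treated wild type, 935 to 1055 in untreated f/f and 57.8 to 69.4 in treated f/f basophils. Cebpa was already 2.39-fold lower in f/f than in wild type cells without the drug (log2 fold change -1.25 ± 0.10 SE, adjusted p = 5.09e-06). Summed basophil marker intensity was 250000 to 310000 in all groups labelled basophil and 131000 to 137900 in mast cells. Summed mast cell markers were lowest in fresh basophils (65570 to 68980) and highest in mast cells (206600 to 214400). No label tells whether the 3 arrays of a group were of different animals or cultures; p-values therefore reflect the spread among these samples alone, and that spread may be technical. In bulk RNA, fewer cells of a type and less RNA per cell cannot be told apart.

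An integrin is a pair of 1 α and 1 β chain, and the pair sets what it binds. The β2 chain pairs with αL (LFA-1), αM (Mac-1) and αX, which bind ICAM molecules, complement fragments and fibrinogen and are found on leukocytes alone. The β1 chain pairs with α2 to bind collagen and with α4 to bind VCAM-1 and fibronectin. The β7 chain pairs with α4 to bind the gut address molecule MAdCAM-1 and with αE, also called CD103, to bind E-cadherin. The β3 chain pairs with αV, and in platelets with αIIb, to bind vitronectin, fibrinogen and other matrix proteins. The α2 chain, known as CD49b, is widely used as a surface marker of mouse basophils; the labels name no surface markers for the purification.

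Promoters are shown first for 4 α chain genes, because Itgam and Itga2 fell and Itga4 rose in drug-treated f/f basophils, while Itgax is the gene next to Itgam. Each sequence is the 250 bases before the gene's RefSeq start (GRCm38.p6), 5′ to 3′ on the gene's strand. Capitals mark GAGGAA, a core bound by the myeloid factor PU.1 (where it lies on the other strand it reads TTCCTC). They also mark AGATAA, the core that GATA factors bind. The Itga2 and Itga4 windows hold neither and stand in lower case throughout.
Itgam, chr7:128062390-128062639, + strand: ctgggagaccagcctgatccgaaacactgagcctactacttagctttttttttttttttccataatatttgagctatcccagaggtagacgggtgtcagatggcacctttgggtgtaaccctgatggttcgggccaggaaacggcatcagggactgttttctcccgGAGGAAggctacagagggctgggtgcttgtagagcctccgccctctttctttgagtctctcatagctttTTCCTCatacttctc
Itgax, chr7:128129300-128129549, + strand: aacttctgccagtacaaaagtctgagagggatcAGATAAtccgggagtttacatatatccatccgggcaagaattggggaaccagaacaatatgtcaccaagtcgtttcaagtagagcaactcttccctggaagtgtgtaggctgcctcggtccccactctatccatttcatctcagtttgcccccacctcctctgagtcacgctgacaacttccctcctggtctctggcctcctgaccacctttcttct
Itga2, chr13:114932101-114932350, - strand: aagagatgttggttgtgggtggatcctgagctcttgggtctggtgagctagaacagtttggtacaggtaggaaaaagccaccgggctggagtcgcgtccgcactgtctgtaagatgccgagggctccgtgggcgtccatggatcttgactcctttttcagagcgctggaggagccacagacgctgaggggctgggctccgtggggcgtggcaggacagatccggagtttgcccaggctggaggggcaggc
Itga4, chr2:79255176-79255425, + strand: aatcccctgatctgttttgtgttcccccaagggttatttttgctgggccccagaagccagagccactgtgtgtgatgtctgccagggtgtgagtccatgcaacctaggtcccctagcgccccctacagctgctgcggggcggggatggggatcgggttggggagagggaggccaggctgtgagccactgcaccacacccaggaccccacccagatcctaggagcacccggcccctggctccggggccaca

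The RefSeq promoter table held 6 of the 10 members, with Itgb1 and Itgb7 beside these 4. On both strands 5 motifs were searched, and no match overlapped another. They were the C/EBP motif TTGCNNAA, the PU.1 core GAGGAA, the GATA core AGATAA, and for MITF and TFE factors the E-boxes CACGTG as well as CATGTG. TTGCNNAA was in none of the 6 windows and in 9.56% of 32851 promoters of the same length. GAGGAA, present in 23.3% of all promoters, began at positions -84 and -15 from the start of Itgam and at -9 from that of Itgb1. AGATAA (9.99% of promoters) was found at -217 of Itgax, CATGTG (12.3%) at -197 of Itgb7, and CACGTG (6.02%) in none of the 6. Matches describe letters in these windows and were not tied to any measured binding. In the RefSeq gene order, Itgam, Itgax and the further α chain gene Itgad follow one another on chromosome 7 with 0 protein-coding genes between neighbours, and 35 lie between Itgal and Itgam.

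Integrin levels differed widely between basophils and mast cells, and the chains went in both directions. In fresh basophils, Itgb2, Itgam, Itga2, Itgb3, Itga4, Itgal and Itgb1 were higher than in mast cells, while Itgae and Itgax were lower. These 7 higher and 2 lower members stand against 37.7% of all 26423 probes that passed limma at an adjusted p of 0.05. Arrays of both groups did not overlap for all 10 members, as for 48.7% of probes. The median log2 fold change was 1.70 over the members and -0.044 over all probes. Untreated cultured wild type basophils, which had been in culture as the mast cells had, gave 8 members higher and 2 lower than mast cells, where 39.2% of probes passed.

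**Figure D1:**
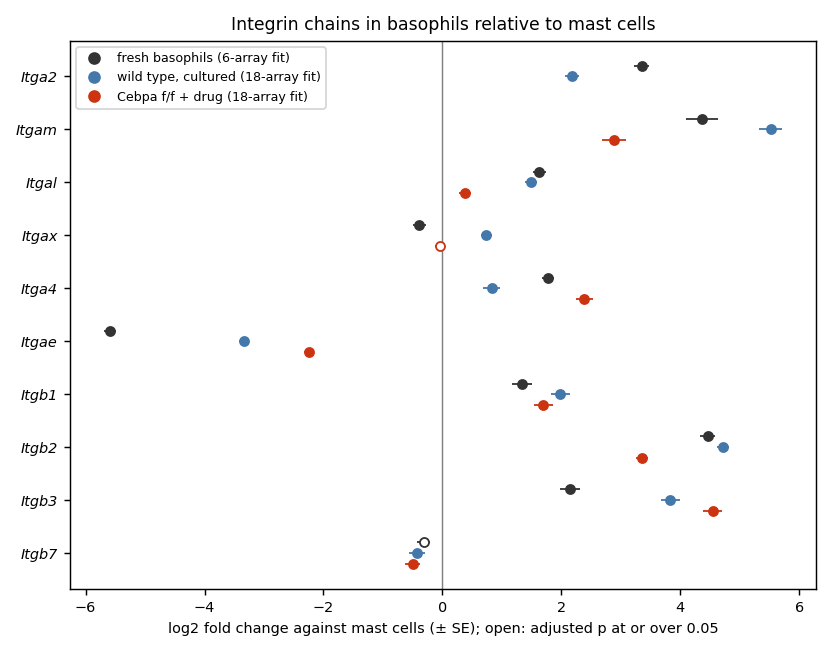
Log2 fold change of each integrin chain against mast cells (x axis, bars are SE, n = 3 arrays a group) in fresh, untreated cultured wild type and drug-treated Cebpa f/f basophils, which share the mast cell arrays; open points did not pass the test. Itgae lies far to the left in all 3 comparisons, from -5.59 to -2.25, and Itgb2 and Itgam to the right; Itga2 in treated f/f cells is not drawn because both groups were at background, and its other values rest on mast cells at background.

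Drug-treated f/f basophils, in which Cebpa was read lowest among basophils, had lower β2 family chains and lower α2 than drug-treated wild type cells, and higher α4, β3 and αE. Itgam, Itgal, Itga2, Itgb2 and Itgax were lower and Itga4, Itgb3 and Itgae higher, 8 of 10 members against 30% of probes that passed. The arrays of both genotypes did not overlap for these 8 members, and for 40.8% of probes. The median over the members was -0.61, against -0.004 over all probes. Itgb1 (-0.31, 95% interval -0.62 to -0.01, adjusted p = 0.123) and Itgb7 (-0.11, -0.41 to 0.18, adjusted p = 0.604) did not pass.

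**Figure D2:**
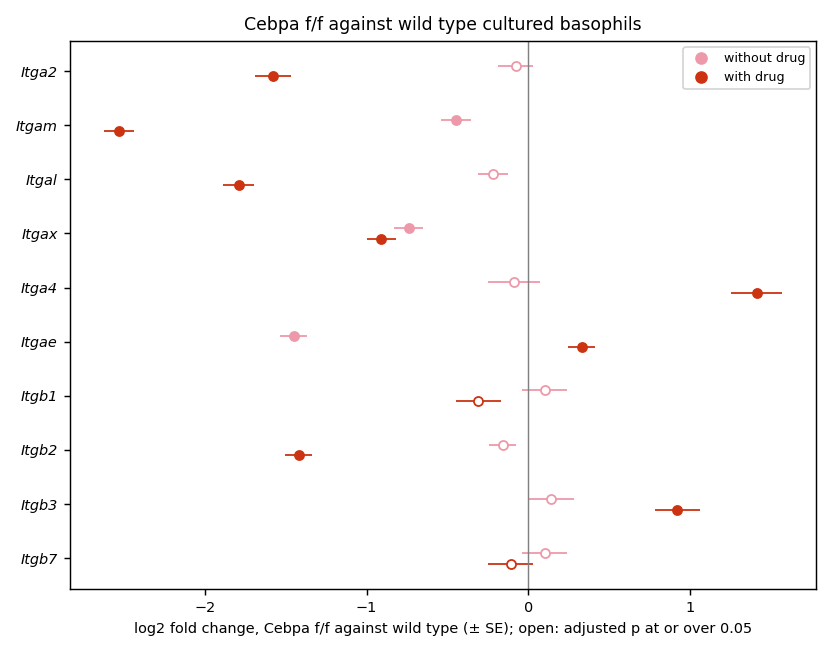
Log2 fold change of each integrin chain in Cebpa f/f against wild type cultured basophils, without and with the drug (bars are SE, n = 3 arrays a group; open points did not pass the test). Itgam, Itgal, Itga2 and Itgb2 lie between -2.53 and -1.42 with the drug and between -0.45 and -0.08 without it, whereas Itgax is at -0.74 without and -0.91 with the drug and Itgae changes side.

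Without the drug, 3 members were lower in f/f than in wild type basophils and 0 were higher by limma (0 also at an unadjusted p under 0.05), where 14.9% of probes passed and 6.82% passed as lower. These were Itgae, Itgax and Itgam, for which the genotypes differed without the drug, as they did for Cebpa itself. The drug raised 2 members in wild type cells, Itgal and Itgae, where 20.5% of probes passed and 10.7% passed as higher. In f/f cells it raised Itgae, Itga4 and Itgb3 and lowered Itgam, Itga2, Itgb2 and Itgal, 7 of 10 members against 18.6% of probes. The difference between the drug effects, tested as an interaction, passed for the same 7 members, 3 higher and 4 lower in f/f, against 11.3% of probes.

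**Figure D3:**
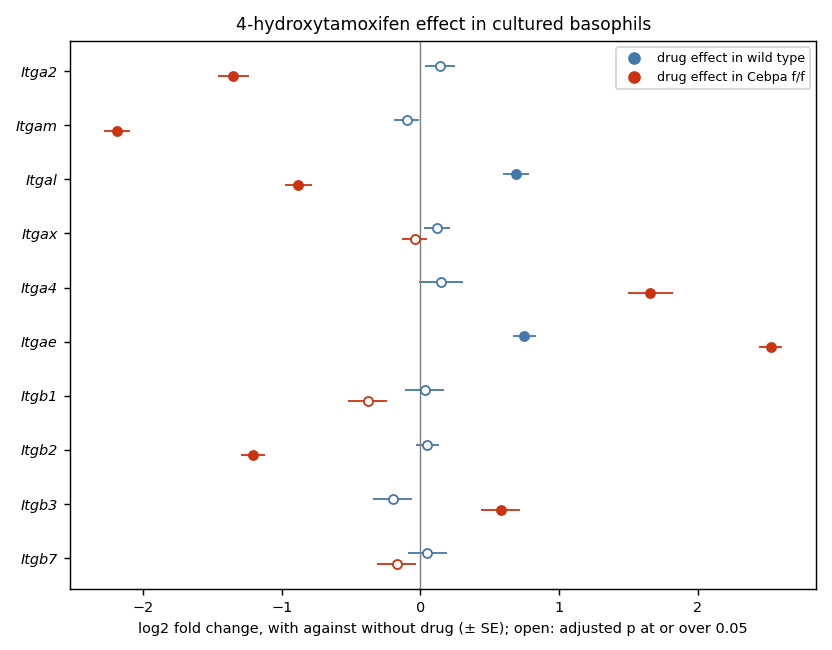
Log2 fold change of each integrin chain with against without 4-hydroxytamoxifen in wild type and in Cebpa f/f basophils (bars are SE, n = 3 arrays a group; open points did not pass the test). In wild type cells all members lie between -0.20 and 0.75, and in f/f cells they spread from -2.19 (Itgam) to 2.53 (Itgae); Itga2 in treated f/f cells was at background.

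The β2 chain, the shared partner of αL, αM and αX, separated basophils from mast cells on every array. Itgb2 read 2937, 3431 and 3383 in fresh basophils and 155, 123 and 121 in mast cells, a 22.0-fold difference (4.46 ± 0.12, adjusted p = 5.10e-08). Untreated wild type cultures gave 3597, 4167 and 3916 and untreated f/f cultures 3491, 3668 and 3306, which overlapped. With the drug, wild type cells gave 4262, 3904 and 3951 and f/f cells 1476, 1513 and 1512. All treated f/f arrays thus lay below every other basophil array and above every mast cell array. The gap to treated wild type was 2.67-fold (-1.42 ± 0.085, adjusted p = 1.07e-07), and the interaction was -1.26 ± 0.12 (adjusted p = 3.45e-05).

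Itgam encodes αM, also called CD11b, a chain of neutrophils, monocytes and other myeloid cells. It read 2437, 2489 and 1221 in fresh basophils, the third array lying well below the other two, and 80.7, 65.2 and 94.5 in mast cells. Cultured wild type basophils were brighter still, with 4483, 4171 and 4462 without and 4014, 3989 and 4202 with the drug. Untreated f/f cells read 2852, 3540 and 3253, below all wild type cultures, and treated f/f cells fell to 669.9, 732 and 671. Even so, treated f/f arrays stayed above all mast cell arrays, by 7.41-fold (2.89 ± 0.20, adjusted p = 3.11e-09).

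Itgam had the widest gap of the members between treated f/f and treated wild type cells, 5.78-fold lower (-2.53 ± 0.093, adjusted p = 1.78e-09). The drug lowered it 4.56-fold in f/f cells (-2.19 ± 0.093, adjusted p = 1.34e-08) and had no detected effect in wild type (-0.10, 95% interval -0.31 to 0.10). Its difference before the drug was 1.36-fold (-0.45 ± 0.093, adjusted p = 0.00589) and was lost with median scaling (-0.23, adjusted p = 0.486; adjusted p from 0.000651 to 0.486 over all settings) and with all 18 arrays in the fit (adjusted p = 0.157). Fresh basophils exceeded mast cells 20.6-fold (4.37 ± 0.27, adjusted p = 4.63e-06) and were 2.23-fold below untreated wild type cultures (-1.16 ± 0.20, adjusted p = 0.000142).

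Itgal encodes αL, the α chain of LFA-1, which binds ICAM-1. Its arrays read 574, 627 and 621 in fresh basophils and 202, 166 and 189 in mast cells, a 3.10-fold difference (1.63 ± 0.11, adjusted p = 6.40e-06). In wild type cultures it rose from 530.5, 548 and 563 without the drug to 966, 899 and 819.6 with it, 1.61-fold (0.69 ± 0.095, adjusted p = 0.000339). In f/f cultures it moved the other way, from 501, 466 and 437 to 247, 268 and 225, 1.84-fold lower (-0.88 ± 0.095, adjusted p = 3.55e-05). The 3.47-fold gap between treated genotypes (-1.79 ± 0.095, adjusted p = 3.78e-08) therefore holds a rise in wild type and a fall in f/f cells. Treated f/f cells remained 1.30-fold above mast cells (0.38 ± 0.094, adjusted p = 0.00403), a call lost with median scaling (adjusted p = 0.0620; 3.43e-05 to 0.0620 over all settings).

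Itgax encodes αX, or CD11c, best known from dendritic cells. Unlike its chromosomal neighbour Itgam, it was not higher in fresh basophils, at 144, 175 and 168, than in mast cells, at 223, 202 and 227. The 1.31-fold difference (-0.39 ± 0.11, adjusted p = 0.0221) turned to 0.11 (adjusted p = 0.445) without normalization between arrays. It was also lost with median scaling (adjusted p = 0.0818), without fresh replicate 1 (0.0709) or 3 (0.0507) and without mast cell replicate 1 (0.0606) or 3 (0.0620); adjusted p ran from 0.00237 to 0.445 across settings.

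In culture Itgax separated the genotypes whether or not the drug was given. Wild type cells read 392, 380.1 and 349.7 without and 398, 417 and 411 with the drug, and f/f cells 234, 199.7 and 219 without and 191, 221 and 220 with it. All f/f arrays were below all wild type arrays. The genotype difference was -0.74 ± 0.091 without the drug (adjusted p = 0.000140) and -0.91 ± 0.091 with it (adjusted p = 9.64e-06), and the interaction was -0.17 (95% interval -0.45 to 0.11, adjusted p = 0.486). Treated f/f cells and mast cells overlapped (-0.04, -0.24 to 0.15, adjusted p = 0.785; 0.24 with adjusted p = 0.0392 without normalization between arrays, and adjusted p from 0.0392 to 0.954 over all settings).

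Other marrow cells also carry β2 integrins, and their marker genes followed these chains in some groups and not in others. Summed neutrophil markers, of which 15 were measured, were 115500 to 121100 in fresh basophils, 37500 to 39380 in untreated and 25910 to 27300 in treated wild type, 19230 to 21120 in untreated and 18170 to 20910 in treated f/f basophils and 6409 to 7780 in mast cells. In treated f/f against treated wild type cells, where 30% of probes passed, 10 of them were lower and 3 higher, with Ngp, S100a8, Elane and Csf3r at background in treated f/f cells and S100a8 at background in every group. Summed monocyte and macrophage markers, 12 measured, were 34800 to 36550 in fresh basophils, 15970 to 17390 in untreated and 17350 to 18020 in treated wild type, 12080 to 13460 in untreated and 13710 to 13990 in treated f/f basophils and 20610 to 23030 in mast cells. In treated f/f against treated wild type cells 10 were lower and 2 higher, and Csf1r, Cd14, C1qa, C1qb and Mrc1 were at background in mast cells. Without the drug 10 were already lower and 1 higher in f/f cells, where 14.9% of all probes passed. With the drug in f/f cells 7 of these 12 were higher and 3 lower, where 18.6% passed. The 6 measured eosinophil markers summed to 45960 to 47560 in fresh basophils, 3471 to 4485 in wild type cultures, 7420 to 11090 in f/f cultures and 596 to 701 in mast cells. Their part in the result was not tested. From fresh to cultured wild type cells the neutrophil sum was lower while Itgam was higher. In f/f cells the neutrophil sums with and without the drug overlapped while Itgam and Itgb2 fell. By gene, 10 of the 15 neutrophil markers were lower and 1 higher with the drug in f/f cells, where 18.6% of all probes passed. The monocyte sum was higher in mast cells than in wild type cultures, whereas Itgb2 was lower there. Against mast cells, 10 of the 12 markers were higher and 1 lower in untreated wild type cultures, where 39.2% of all probes passed.

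Dendritic cell markers, of which 10 were measured, were set beside Itgax. They summed to 20630 to 21640 in fresh basophils, 28650 to 32700 in untreated and 32180 to 34270 in treated wild type, 16550 to 18610 in untreated and 15900 to 17770 in treated f/f basophils and 10010 to 12340 in mast cells. Like Itgax, the sum was thus lower in f/f than in wild type cultures with and without the drug. Ccr7 (-1.28), H2-Aa (-1.07), Bst2 (-0.95) and Batf3 (-0.76) were lower in treated f/f than in treated wild type cells, and also without the drug (-0.53, -0.60, -1.07 and -0.43). Of the 10, Xcr1, Clec9a, Siglech and Cd209a were at background in every group, and Flt3 in every group but untreated wild type. Zbtb46 was at background in no group. Its means were 69.64 in untreated and 46.06 in treated wild type, and 66.94 in untreated and 47.56 in treated f/f basophils. Their part in the Itgax difference was not tested.

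The α2 chain was read best in fresh basophils and was at background in mast cells. Itga2 gave 164, 219.9 and 180.4 in fresh basophils and 3.67, 3.28 and 4.78 in mast cells, at least 6.23-fold higher (adjusted p = 1.85e-07), where this bound raises the mast cell values to the background limit of 30. Cultured wild type cells read 69.3, 81.0 and 72.2 without and 81.2, 82.8 and 86.7 with the drug, below all fresh basophils. Untreated f/f cells overlapped them at 55.4, 81.4 and 72.2, and treated f/f cells dropped below background at 17.1, 18.4 and 16.7.

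That drop was at least 2.78-fold against treated wild type (adjusted p = 4.09e-07) and at least 2.29-fold against untreated f/f cells (adjusted p = 3.39e-06). In wild type cells no drug effect on Itga2 was detected (0.14, 95% interval -0.09 to 0.38, adjusted p = 0.425). The interaction of -1.49 ± 0.15 (adjusted p = 6.59e-05) is a fitted value that rests on readings below background. The order of treated f/f and mast cells is not read, since both were at background. NK cells also carry α2, and their 10 measured markers summed to 3892 to 4394 in fresh basophils, 3770 to 4034 in untreated and 1558 to 1715 in treated wild type, 756 to 803 in untreated and 1712 to 1813 in treated f/f basophils and 147 to 177 in mast cells. In fresh basophils 4 of them were higher than in mast cells and 1 was lower, where 37.7% of all probes passed. Nkg7 was furthest (7.70), a fitted value that rests on mast cell readings at background. Their part in the Itga2 difference was not tested. In f/f cells the sum was higher with the drug than without it, while Itga2 was lower. By gene, 2 of the 10 markers were higher and 1 lower with the drug there, where 18.6% of all probes passed. Nkg7 and Gzma were not at background in any basophil group, nor were Klra8 and Eomes in cultured basophils and mast cells. Klrk1 was above background in fresh basophils alone, and Klre1 in fresh and treated wild type basophils. The other NK markers on the list, Ncr1, Klrb1c, Prf1 and Klrd1, were at background in all 6 groups. The platelet chain Itga2b was at background in all 6 groups too. Of 7 megakaryocyte and platelet markers measured, it was the only 1 at background in the basophil groups. Their sums are given with Itgb3 below, and their part in the Itga2 difference was not tested.

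Itgb1, whose β1 chain pairs with α2, α4 and many other α chains, was bright in every group and varied less. It read 3621, 2398 and 2619 in fresh basophils and 1198, 1196 and 949.5 in mast cells, 2.53-fold apart (1.34 ± 0.17, adjusted p = 0.000394). Cultured basophils read 4470, 3958 and 4897 (untreated wild type), 4220, 4566 and 4811 (treated wild type), 3924, 5241 and 5216 (untreated f/f) and 4257, 3544 and 3206 (treated f/f). These 4 groups overlapped one another. The drug effect in f/f cells was -0.38 (95% interval -0.69 to -0.08, adjusted p = 0.0835), and passed under 7 of 21 settings (adjusted p 0.00975 to 0.246).

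The dimmer Itgb1 probe read 27.6 to 63.2 on all arrays, close to background, and gave no detected difference between fresh basophils and mast cells (0.05, 95% interval -0.24 to 0.34, adjusted p = 0.797). By that probe untreated wild type cultures were higher than mast cells (0.35, adjusted p = 0.0385), and treated f/f cells did not pass (0.17, adjusted p = 0.341). Both probes gave -0.38 for the drug effect in f/f cells. Fresh basophils were 1.56-fold below untreated wild type cultures by the brighter probe (-0.64 ± 0.16, adjusted p = 0.00431), a call lost with median scaling (adjusted p = 0.0663) and without normalization between arrays (0.0933; 0.000586 to 0.0933 over all settings).

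Itga4, the chain of the VCAM-1 receptor, moved opposite to the β2 family in treated f/f cells. Fresh basophils read 233, 198 and 219 and mast cells 56.8, 48.4 and 50.7, 3.42-fold apart (1.78 ± 0.10, adjusted p = 3.54e-06). Culture went with lower values, 102, 98.7 and 114 in untreated and 112, 108.5 and 136 in treated wild type cells. Untreated f/f cells read 69.3, 113 and 116, and treated f/f cells 348, 374 and 304, above every array of every other group. The rise with the drug in f/f cells was 3.15-fold (1.66 ± 0.16, adjusted p = 1.26e-05), and that against treated wild type 2.66-fold (1.41 ± 0.16, adjusted p = 2.43e-05). In wild type cells the drug effect was 0.15 (95% interval -0.19 to 0.50, adjusted p = 0.579), and the interaction 1.50 ± 0.22 (adjusted p = 0.000969). Treated f/f cells differed from mast cells more than fresh basophils did in size, 5.26-fold (2.39 ± 0.14, adjusted p = 5.43e-10), and both comparisons used the same mast cell arrays.

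Itgae encodes αE, whose ligand is the epithelial E-cadherin, and it gave the widest gap of all members between fresh basophils and mast cells. Mast cells read 7908, 8101 and 7908 and fresh basophils 138, 169 and 145, a 48.1-fold difference (-5.59 ± 0.10, adjusted p = 7.89e-09). Untreated wild type cultures lay between at 795, 799 and 748, and treated ones at 1329, 1313 and 1326. Untreated f/f cells read 280.3, 285 and 260.2 and treated f/f cells 1813, 1632 and 1567. No group overlapped another, and each neighbour in the order of levels differed, with mast cells first, then treated f/f, treated wild type, untreated wild type, untreated f/f and fresh basophils.

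Because f/f cells began lower and ended higher, the sign of the genotype difference of Itgae turned with the drug. It was 2.74-fold lower in f/f cells without the drug (-1.45 ± 0.083, adjusted p = 2.35e-07) and 1.26-fold higher with it (0.33 ± 0.083, adjusted p = 0.00856). The latter was lost with median scaling (0.30, adjusted p = 0.203; 0.000829 to 0.203 over all settings). The drug raised Itgae 1.68-fold in wild type (0.75 ± 0.083, adjusted p = 8.11e-05) and 5.79-fold in f/f cells (2.53 ± 0.083, adjusted p = 1.64e-09), and the interaction was 1.78 ± 0.12 (adjusted p = 1.57e-06). Treated f/f cells remained 4.74-fold below mast cells (-2.25 ± 0.083, adjusted p = 1.01e-12).

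Summed mast cell markers put all 6 groups in the same order as Itgae. They were 98620 to 100500 in untreated and 110000 to 114000 in treated wild type, 94420 to 98170 in untreated and 168400 to 179900 in treated f/f cells. By gene, 5 of the 12 measured markers were higher and 4 lower with the drug in wild type cells, where 20.5% of all probes passed. In treated f/f against treated wild type cells 8 of the 12 were higher and 0 lower, where 30% of all probes passed, with Tpsab1 and Mrgprb2 at background in both. Their part in the result was not tested. Among T cells, αE marks subsets. The 7 T cell markers measured summed to 117 to 225 over all arrays, and Cd4 and Cd5 were at background in all 6 groups.

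Itgb7, the only known partner chain of αE and a partner of α4, was bright in all groups and changed least. It read 9032, 10010 and 8771 in mast cells, 8209, 7410 and 6816 in fresh basophils, 6568, 6645 and 7357 in untreated and 7119, 7315 and 6856 in treated wild type cells. In f/f cells it read 6450, 7315 and 8442 without and 7055, 7552 and 5293 with the drug. All mast cell arrays lay above all basophil arrays, and the basophil groups overlapped.

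The difference of Itgb7 from mast cells was -0.31 (95% interval -0.57 to -0.06, adjusted p = 0.0582) in fresh, -0.43 ± 0.13 (adjusted p = 0.0113) in untreated wild type and -0.50 ± 0.13 (adjusted p = 0.00533) in treated f/f basophils. The first passed under 6 of 15 settings and became 0.12 without normalization between arrays (adjusted p 0.0146 to 0.561 over all settings). The second was lost without that normalization (adjusted p = 0.465) and without mast cell replicate 2 (0.0509; 0.00308 to 0.465 over all settings). For the drug effect the intervals were -0.25 to 0.35 in wild type and -0.46 to 0.13 in f/f cells.

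Itgb3, the β chain of vitronectin and fibrinogen receptors, rose from mast cells to fresh and again to cultured basophils. Mast cells read 293, 369 and 240.3 and fresh basophils 1567, 1319 and 1228, 4.42-fold higher (2.14 ± 0.17, adjusted p = 1.82e-05). Wild type cultures read 4430, 3935 and 4967 without and 3755, 3349 and 4512 with the drug, 3.22-fold above fresh basophils in the untreated cells (-1.69 ± 0.16 for fresh against cultured, adjusted p = 1.37e-07). Untreated f/f cells read 4148, 5496 and 5067, and treated f/f cells, at 7851, 6885 and 7223, were above all other arrays.

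Against treated wild type cells Itgb3 was 1.90-fold higher in f/f cells (0.92 ± 0.14, adjusted p = 0.000247). The drug effect in f/f cells, 1.50-fold (0.58 ± 0.14, adjusted p = 0.0101), was lost with median scaling (0.29, adjusted p = 0.332), without normalization between arrays (0.0818) and when arrays were scaled on probes above background (0.0692); adjusted p ran from 0.00282 to 0.332 across settings. The interaction (0.79 ± 0.20, adjusted p = 0.0219) was lost with median scaling (0.49, adjusted p = 0.271) and without treated wild type replicate 2 (0.0527), untreated wild type replicate 3 (0.0587) or treated f/f replicate 1 (0.0556), with 0.00637 to 0.271 over all settings. Summed megakaryocyte and platelet markers, 7 measured, were 1756 to 1960 in fresh basophils, 10910 to 12590 in untreated and 13680 to 15020 in treated wild type, 4370 to 5554 in untreated and 8862 to 11260 in treated f/f basophils and 1314 to 1434 in mast cells. In treated f/f against treated wild type cells 5 of them were lower and 0 higher, while Itgb3 was higher (30% of probes passed). With the drug in f/f cells 6 were higher and 0 lower, as Itgb3 was higher (18.6% of probes). Fresh basophils had 6 lower and 0 higher than untreated wild type cultures, as Itgb3 was lower (34.9% of probes). Itga2b was at background in every group, and the part of these markers in the Itgb3 differences was not tested.

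**Figure D4:**
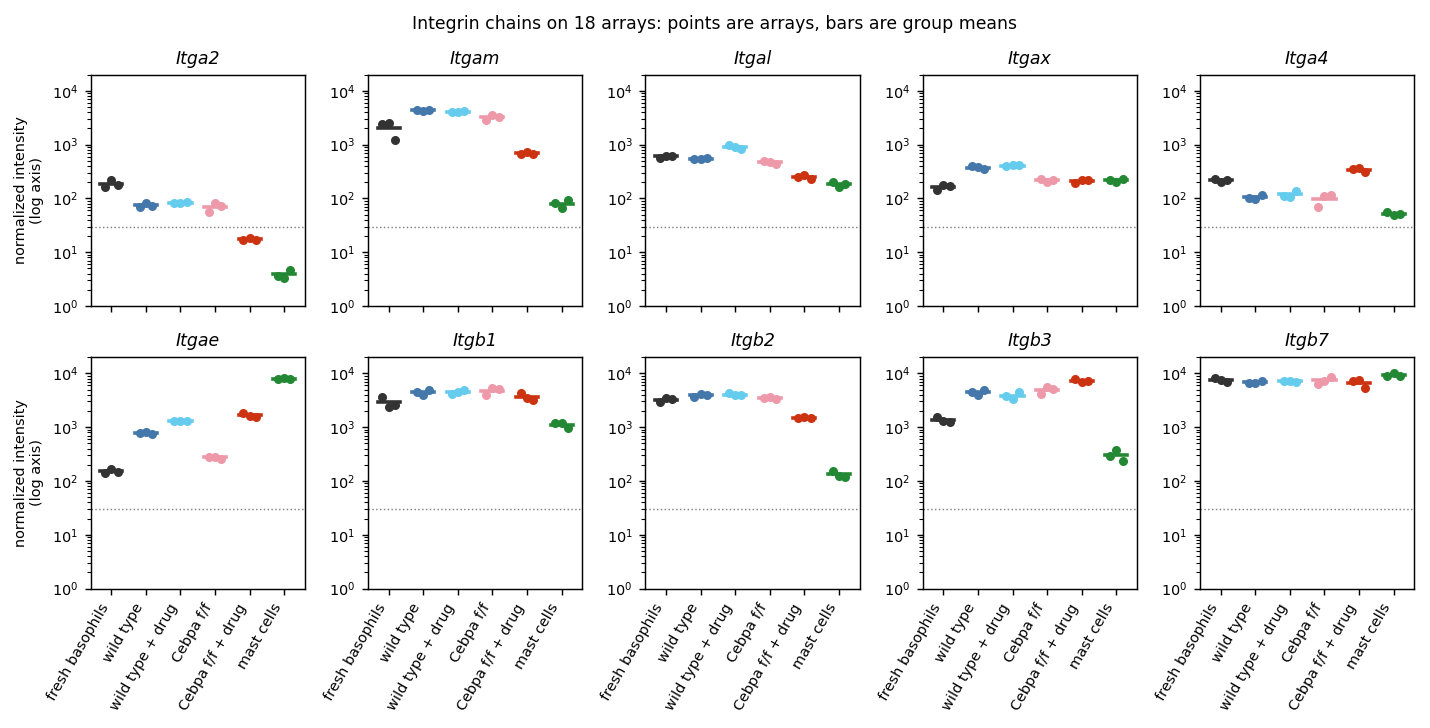
Normalized intensity of each integrin chain on 18 arrays (log axis), with points for arrays, bars for means of 3 arrays and a dotted line at the background limit of 30. Itgb2 and Itgam drop in treated f/f basophils and again in mast cells, Itgae is highest in mast cells (7908 to 8101), and Itgb7 stays between 5293 and 10010 throughout.

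Culture for 5 days in interleukin-3 also went with different integrin levels. Between fresh and untreated wild type cultured basophils 7 members passed, against 34.9% of probes. Itga2 (2.25-fold) and Itga4 (1.93-fold) were higher in fresh cells, and Itgae (4.80-fold), Itgb3 (3.22-fold), Itgam (2.23-fold), Itgax (2.19-fold) and Itgb1 (1.56-fold) higher in culture. Itgal (0.15, 95% interval -0.05 to 0.35), Itgb7 (0.12, -0.15 to 0.39) and Itgb2 (-0.26, -0.47 to -0.05, adjusted p = 0.0502) did not pass. Itgb2 did pass under 8 of 26 settings (adjusted p 0.00988 to 0.759). The cultured cells also carried the RosaYFP/creER alleles, so culture and these alleles cannot be told apart here.

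Treated f/f basophils were set beside mast cells, in which Cebpa was read at 45.7 to 63.8 (treated f/f against mast cells 0.19, 95% interval -0.04 to 0.42, adjusted p = 0.190). Their integrin levels differed from those of mast cells, with 7 members higher and 2 lower against 35.4% of probes, counting Itga2, which was at background in both. Itgb3 (23.4-fold), Itgb2 (10.2-fold), Itgam (7.41-fold), Itga4 (5.26-fold) and Itgb1 (3.26-fold) were the most raised, and Itgae the most lowered. For Itgb2, Itgam, Itgal and Itgae the treated f/f mean lay between those of treated wild type and mast cells. For Itga4 and Itgb3 it lay beyond treated wild type, on the side away from mast cells. The Itgb1 mean also lay between and the Itgb7 mean beyond, but neither gene passed between the treated genotypes. Itgax overlapped in treated f/f and mast cells.

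Ranked by group mean, several neighbouring groups could not be separated (limma on all 18 arrays). For Itgb2 the order was treated wild type, untreated wild type, untreated f/f, fresh, treated f/f and mast cells, and no step among the first 4 passed. For Itgam, untreated wild type, treated wild type and untreated f/f did not differ stepwise. Itgal in fresh, untreated wild type and untreated f/f cells did not differ stepwise, nor did Itgax in untreated f/f, mast and treated f/f cells. For Itga4 treated wild type, untreated wild type and untreated f/f did not differ stepwise, for Itgb3 untreated f/f, untreated wild type and treated wild type, and for Itga2 treated wild type, untreated wild type and untreated f/f. All basophil groups of Itgb1 and all 6 groups of Itgb7 had no step that passed.

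The genes closest to a member in pattern were sought among 1760 genes that spanned at least 2 log2 units, as root mean square difference of centred log2 means over the 6 groups. Itgb2 was closest to the basophil tryptase Prss34 (0.14), then Ttc39c (0.28) and St14 (0.31). Itgam was nearest to Pglyrp1 (0.25), a neutrophil granule protein, Pi16 (0.26) and Tnfrsf26 (0.33), and Itgal to Ammecr1 (0.20), the chemokine receptor Ccr1 (0.21) and Emb (0.25). Itga2 was nearest to E2f2 (0.22), G0s2 (0.22) and Hsd17b1 (0.24), and Itgb1 to Pglyrp2 (0.15), Arrb2 (0.16) and Fzd5 (0.17). The rising chains had other neighbours. Itga4 was nearest to Bfsp2 (0.23), Sh3pxd2a (0.40) and Setd4 (0.41), Itgae to Maob (0.41), Galm (0.54) and Mtss1 (0.62), and Itgb3 to Ahcyl2 (0.20), the tetraspanin Cd82 (0.36) and 1700012B09Rik (0.36). With 6 group means from the same arrays, such nearness is a description. Itgax and Itgb7 spanned under 2 log2 units and were not ranked.

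Of 17 other integrin chains measured, 5 were lower and 1 was higher in treated f/f than in treated wild type cells, at a median of -0.20, where 30% of all probes passed. Only 11 of the 17 read 30 or more on any array. Itgb5, a partner of αV (-1.50 ± 0.099, adjusted p = 2.50e-07), and Itga6, a laminin receptor chain (-1.39 ± 0.088, adjusted p = 1.91e-07), were the lowest among those above background in both groups. Against mast cells, 8 of the 17 were higher in fresh basophils, where 37.7% of probes passed. Itgad, the further β2 partner beside Itgax on the chromosome, was at least 13.8-fold higher, Itgb5 at least 11.4-fold, Itga8 at least 5.78-fold and the collagen receptor chain Itga1 at least 4.92-fold, with mast cells at background for each.

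Genes that switch integrins on, or tie them to actin, were lower in 13 and higher in 4 of 31 cases in treated f/f against treated wild type cells, at a median of -0.17, beside 30% of all probes. Rasgrp2, the exchange factor that activates Rap1 (-1.53 ± 0.12, adjusted p = 1.43e-06), Rap1gap2, which switches Rap1 off (-1.57 ± 0.087, adjusted p = 5.26e-08), and the focal adhesion adaptor Pxn (-1.07 ± 0.10, adjusted p = 5.03e-06) were lower. Rasgrp1, an exchange factor for Ras, was higher (1.26 ± 0.13, adjusted p = 1.42e-05). In fresh basophils against mast cells 17 of these 31 were higher and 5 lower (37.7% of all probes passed), with Rasgrp2 at least 27.8-fold higher, Actn1 higher (4.52 ± 0.18), Rasgrp1 lower (-2.60 ± 0.092) and Fermt2 at least 3.78-fold lower. Rasgrp2 and Rasgrp1 went opposite ways in both comparisons.

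Of 14 kinases and signalling proteins downstream of leukocyte integrins, 5 were lower and 2 higher in treated f/f cells, at a median of -0.14, where 30% of all probes passed. Vav3 (-1.22 ± 0.10), Pik3cg (-0.75 ± 0.081) and Plcg2 (-0.42 ± 0.087) were lower and Src (0.53 ± 0.082) higher, with adjusted p of 0.00264 at most. Between fresh basophils and mast cells, 3 were higher and 4 lower, against 37.7% of probes that passed. The Src family kinase Fgr was at least 28.3-fold higher and Fyn higher (3.27 ± 0.20) in basophils, and Src itself lower (-3.03 ± 0.096).

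Ligands of the members went both ways. In treated f/f against treated wild type cells 3 of 22 were higher and 5 lower, at a median of 0.03, close to the 30% of all probes that passed. Cdh1, the E-cadherin that αE binds, was lower (-1.70 ± 0.14, adjusted p = 1.41e-06), as was Vcam1, the ligand of α4β1 (-1.56 ± 0.090, adjusted p = 7.76e-08), and the laminin chain Lama5 (-1.53 ± 0.095, adjusted p = 1.49e-07), while Icam4 was higher (1.63 ± 0.086, adjusted p = 3.42e-08). Vcam1 was also lower in f/f cells without the drug (-1.66 ± 0.090, adjusted p = 1.63e-07), and the drug raised it in f/f cells (0.45, adjusted p = 0.00369) and in wild type (0.35, adjusted p = 0.0151). Fresh basophils had 10 of 22 higher and 2 lower than mast cells, beside 37.7% of all probes, led by Vcam1 (8.29 ± 0.16), Thy1 (at least 97.7-fold), Cdh1 (5.24 ± 0.14) and Thbs1 (at least 2.67-fold). So E-cadherin was higher in fresh basophils and αE higher in mast cells.

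Tetraspanins and other membrane partners of integrins went both ways in treated f/f cells, with 3 of 13 higher and 4 lower, where 30% of all probes passed. Cd81 was higher (1.39 ± 0.089, adjusted p = 1.91e-07), and Cd9 (-1.48 ± 0.11, adjusted p = 6.22e-07), Slc3a2 (-1.05 ± 0.078, adjusted p = 7.71e-07) and Cd47 (-1.01 ± 0.086, adjusted p = 2.45e-06) lower. Adhesion receptors of other families had 2 of 15 higher and 7 lower in the same comparison. The stem cell sialomucin Cd34 was higher (1.39 ± 0.088, adjusted p = 1.90e-07), and the activating receptor Cd226 (-1.67 ± 0.11, adjusted p = 3.46e-07), the hyaluronan receptor Cd44 (-1.27 ± 0.089, adjusted p = 4.40e-07) and the E-selectin ligand Glg1 (-0.81 ± 0.095, adjusted p = 3.76e-05) lower. Against mast cells, 7 of 13 partners and 9 of 15 other receptors were higher in fresh basophils, and 3 of each were lower, among them Cd34 (-4.21 ± 0.098), against 37.7% of all probes.

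**Figure D5:**
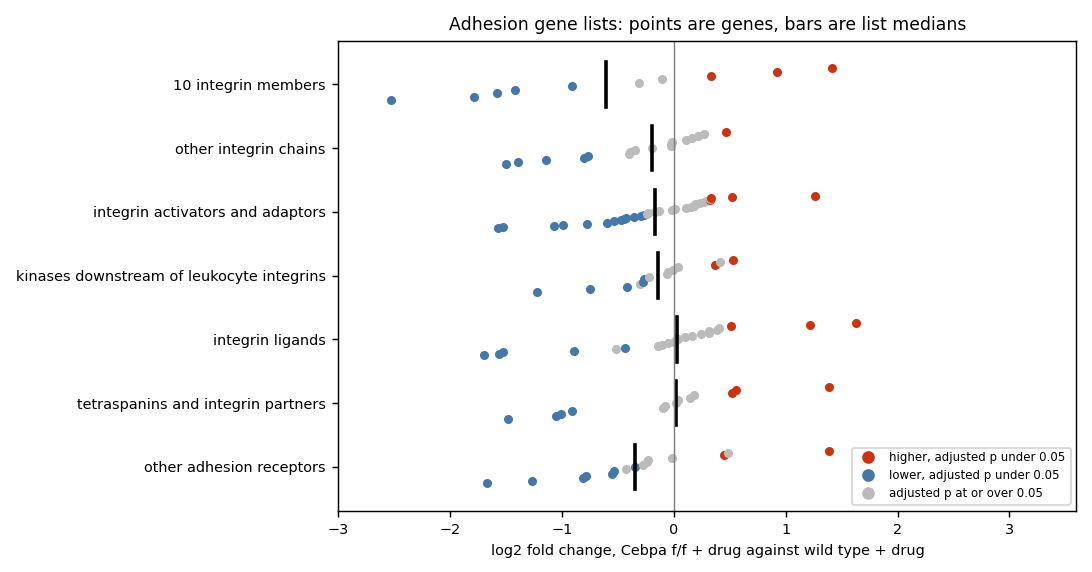
Log2 fold change in drug-treated Cebpa f/f against drug-treated wild type basophils for the integrin members and 6 further adhesion gene lists; points are genes, colours show the call at an adjusted p of 0.05, and black bars are list medians. The members' median is -0.61, and the medians of the other lists lie between -0.35 and 0.03.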

How the data were processed

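Total RNA, extracted with Trizol and RNeasy columns per the labels' protocols, was labelled with a cyanine dye and hybridized to single-dye arrays. The authors deposited linear probe intensity values; how the scans were read and whether values were normalized first is not stated in the labels. Probes were named from the platform annotation. Intensities were quantile normalized over 18 arrays, transformed as log2(intensity + 16) and tested two-sided by lmFit and eBayes of limma 3.58.1 (R 4.3.3). P-values were adjusted over all 26423 probes by the Benjamini-Hochberg method, and an adjusted p under 0.05 was a call. The fit of fresh basophils and mast cells held only those 6 arrays, comparisons within cultured basophils used their 12 arrays, and all others used 18. Folds are on this log2 scale, which understates changes of dim probes; 3 arrays a group limit the precision.

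A probe under 30 on every array of a group was taken as at background there, and the fold is a lower bound, the brighter mean over the values raised to 30. All members were named, and of each other list up to 4 genes with the largest change past the test. The members, lists and background limit were chosen with earlier results of these data known. Alternatives were median scaling, no normalization between arrays, quantile normalization per fit, an offset of 50, a filter on the dimmest 30% of probes, averaged probes, other sets of arrays in the fit, a replicate block and each array left out; scaling on probes above background was added after seeing the data. The fits on 6 and 12 arrays were tested on simulated data in which the changed genes were known.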

Additional observations from a re-analysis of the deposited data

Results flagged for a closer look

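The drug effect differed between Cebpa f/f and wild type basophils for 7 integrin chains, by limma's test of the difference itself on 12 arrays. As log2 differences of drug effects, f/f minus wild type, the chains that went lower in f/f cells were Itgam at -2.08, Itgal at -1.57, Itga2 at -1.49 and Itgb2 at -1.26. Those that went higher were Itgae at 1.78, Itga4 at 1.50 and Itgb3 at 0.79. The values for Itga2 rest on treated f/f arrays at background. For Itgal the effects had opposite signs, 0.69 in wild type and -0.88 in f/f cells, whereas for Itgae both were positive, 0.75 and 2.53.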

How the results depend on the processing

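Of 1980 member values under alternative settings, 1908 kept their direction and their side of the threshold, 20 lost a call and 25 gained one. Another 25 changed sign while passing under neither setting, to values from -0.30 to 0.12. The 2 values that changed sign with a call on either side were Itgax in fresh basophils against mast cells (0.11) and in treated f/f basophils against mast cells (0.24), both without normalization between arrays. Without that normalization 4 members passed for the drug effect in wild type cells, in place of 2, as Itgam (-0.40) and Itgb3 (-0.51) gained calls; the cause was not tested. Median scaling took the probes called from 5404 to 3042 for the drug effect in wild type, from 4922 to 3146 in f/f cells and from 2981 to 1484 for the interaction. Without normalization the median of all probes moved to 0.16 in fresh basophils against mast cells, and the share of calls that were higher from 45.2% to 78.2%; in treated f/f against treated wild type it went from 51.2% to 62.0%, and for the interaction from 48.5% to 79.0% (27.8% with median scaling). Itga2 and the dimmer Itgb1 probe lie near background, which limits their sizes.

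Correlations of deviations between arrays of the same replicate number ran from -0.38 to 0.12 over 15 pairs of arrays, with 1 over 0.1. No pairing by number was thus detected, though with 3 arrays a group a weak one could be missed. With the replicate block, no member's call changed, and 9352 probes in place of 9970 passed for fresh basophils against mast cells and 7530 in place of 7928 for the treated genotypes.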
